A study of Homo sapiens with 29 samples.

Results

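Genes of the epidermal differentiation complex and the S100A family, which sit together on chromosome 1q21, were followed in growing, senescent and SMARCA4-depleted senescent human fibroblasts. The genes were chosen by symbol: all late cornified envelope genes (LCE1 to LCE6), small proline-rich genes (SPRR1 to SPRR5) and S100A genes, together with IVL, FLG, HRNR and TCHH. This gave 49 genes of the 28266 in the deposited table, and all 49 lie between positions 151982915 and 153632039 of chromosome 1 (hg38). The group was also selected on readout, because IVL and LCE1F had been seen to respond in these samples, so both are described here with no test and are left out of every count of genes called. LCE2C and IVL reached the limit below only through the 4OHT_siNT libraries. The levels of LCE2C are therefore likewise a description, and counts are given for the other 9 reported genes, beside those for all 10 where they are used. Of the 49 genes, 12 had at least 10 counts in at least 5 libraries and are reported one by one.

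The cells were IMR90 ER:RAS, an established line of human lung fibroblasts transduced with a retroviral vector for a fusion of the estrogen receptor with oncogenic RAS that 4-hydroxytamoxifen (4OHT) switches on. DMSO_siNT cells received the solvent DMSO and a non-targeting siRNA (siNT), and 4OHT_siNT cells received 4OHT and siNT and were senescent. The 4OHT_siSMARCA4 cells received 4OHT and an siRNA against SMARCA4, an ATPase of the SWI/SNF chromatin remodeler. All groups carried the fusion by their labels, siRNAs were transfected 1 day before 4OHT, and RNA was taken on day 7. Each group had 6 libraries, 3 with an siRNA numbered 2 and 3 with an siRNA numbered 4. Each library also has a set name, a number followed by V or VM, whose meaning is not given in the sources used here. The column of 1 siSMARCA4_2 library carries the set 1VM, which no sample title with that siRNA has, and it is called the unmatched library. A library such as DMSO_siNT 4-2V is named by its siRNA number and its set.

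In skin, keratinocytes that leave the basal layer build a cornified envelope beneath their membrane. Involucrin (IVL) is an early scaffold protein of this envelope, and the late cornified envelope and small proline-rich proteins are cross-linked into it by transglutaminases, while filaggrin (FLG), hornerin (HRNR) and trichohyalin (TCHH) bundle or bind keratin filaments. S100 proteins are small calcium-binding proteins with EF-hand motifs, several of which act in most tissues, among them S100A10, which binds annexin A2, and S100A4, which is a familiar product of motile fibroblasts.

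LCE1F, LCE2A and LCE2C moved together, while IVL also depended on the control siRNA. The stretches just upstream of these cornified envelope genes are shown, and LCE2B is added as a near copy of LCE2C. Each is the 250 bases before the transcription start in RefSeq (GRCh38.p14, plus strand), and 45 of the 49 genes had such an entry. Capitals mark 3 motifs searched on both strands, which do not overlap here: the TATA box as TATAAA, the AP-1 motif as TGANTCA with N for any base, and the core of ETS factors as GGAAGT.
IVL, chr1:152908296-152908545: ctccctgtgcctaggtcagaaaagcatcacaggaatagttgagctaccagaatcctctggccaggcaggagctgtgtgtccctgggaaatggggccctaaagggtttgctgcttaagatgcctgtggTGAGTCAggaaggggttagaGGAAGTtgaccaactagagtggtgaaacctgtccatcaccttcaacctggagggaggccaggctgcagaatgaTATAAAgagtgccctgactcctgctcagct
LCE1F, chr1:152774890-152775139: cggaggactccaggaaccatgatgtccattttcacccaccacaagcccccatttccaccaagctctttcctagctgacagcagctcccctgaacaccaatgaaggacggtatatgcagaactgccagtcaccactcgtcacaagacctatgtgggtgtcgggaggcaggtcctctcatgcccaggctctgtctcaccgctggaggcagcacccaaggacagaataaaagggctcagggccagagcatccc
LCE2A, chr1:152698095-152698344: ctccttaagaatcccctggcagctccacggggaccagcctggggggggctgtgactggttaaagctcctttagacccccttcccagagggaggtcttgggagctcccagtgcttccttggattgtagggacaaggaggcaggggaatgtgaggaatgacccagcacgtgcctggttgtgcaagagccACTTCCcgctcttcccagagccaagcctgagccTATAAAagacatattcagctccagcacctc
LCE2C, chr1:152675029-152675278: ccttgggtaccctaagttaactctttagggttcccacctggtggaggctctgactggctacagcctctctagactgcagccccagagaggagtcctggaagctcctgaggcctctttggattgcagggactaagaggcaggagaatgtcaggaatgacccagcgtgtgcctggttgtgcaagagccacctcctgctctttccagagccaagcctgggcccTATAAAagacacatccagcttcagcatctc
LCE2B, chr1:152685873-152686122: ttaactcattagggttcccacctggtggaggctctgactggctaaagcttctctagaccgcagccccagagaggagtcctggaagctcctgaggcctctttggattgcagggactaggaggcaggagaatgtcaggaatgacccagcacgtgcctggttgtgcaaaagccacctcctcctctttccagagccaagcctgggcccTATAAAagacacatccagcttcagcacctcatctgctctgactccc
TATAAA ended 25 bases before the start in IVL, LCE2A and LCE2C and 41 bases before it in LCE2B, and these letters were not in the LCE1F window. AP-1 letters were in the IVL window alone of these 5, and ETS letters were in IVL and LCE2A. Over the 34943 RefSeq windows of the same length, 10.8% held the TATA letters, 6.59% those of AP-1 and 19.5% those of ETS. At least 1 window of 26 of the 45 genes held TATAAA, and the AP-1 letters were in 13 of 45, with 6 of 8 SPRR genes and 0 of 17 LCE genes. The LCE2B and LCE2C windows were 84.6% identical when aligned, and the LCE2A and LCE1F windows 48.9%.

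One DMSO library went against its label and bears on most S100A values. DMSO_siNT 4-2V had 29.5 CPM of ESR1, which carries the receptor part of the fusion, where the other 5 DMSO libraries had 1034 to 1316 CPM, and 436 CPM of HRAS where the others had 2165 to 2852 CPM (CPM, reads scaled to library size by TMM). Its S100A10, S100A6, S100A4, S100A3, S100A2 and S100A13 levels were 3.01 to 6.16 times the mean of the other 5. Fitted senescence values of the S100A genes, LCE2A and LCE2C, and the counts of the gene lists, are therefore also given without it. The targeted gene was lower in every knockdown library than in any senescent control: SMARCA4 had a mean of 301 ± 20.9 CPM in 4OHT_siNT and one of 99.0 ± 27.6 CPM in 4OHT_siSMARCA4 (SD, n = 6), with 70.4 CPM in the lowest and 141 CPM in the highest library. Total counts ran from 9657309 to 18039313 per library, so 1 count was worth far less than 1 CPM and the 3 counts taken as a floor came to 0.168 to 0.359 CPM. All 10 fibroblast markers listed had reads enough to be tested, and in 4OHT_siNT they ran from 17.4 CPM for DCN to 7053 CPM for COL1A1. Nothing in the labels says that libraries of a group came from separate cultures, so p-values measure only the spread between these samples.

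Of the 18 LCE genes only 3, LCE1F, LCE2A and LCE2C, reached the reporting limit, and IVL was the only 1 of IVL, FLG, HRNR and TCHH to do so. None of the 11 SPRR genes did. LCE2C and IVL reached the limit only through 4OHT_siNT. The plot of levels by library shows the 12 reported genes.

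**Figure D1:**
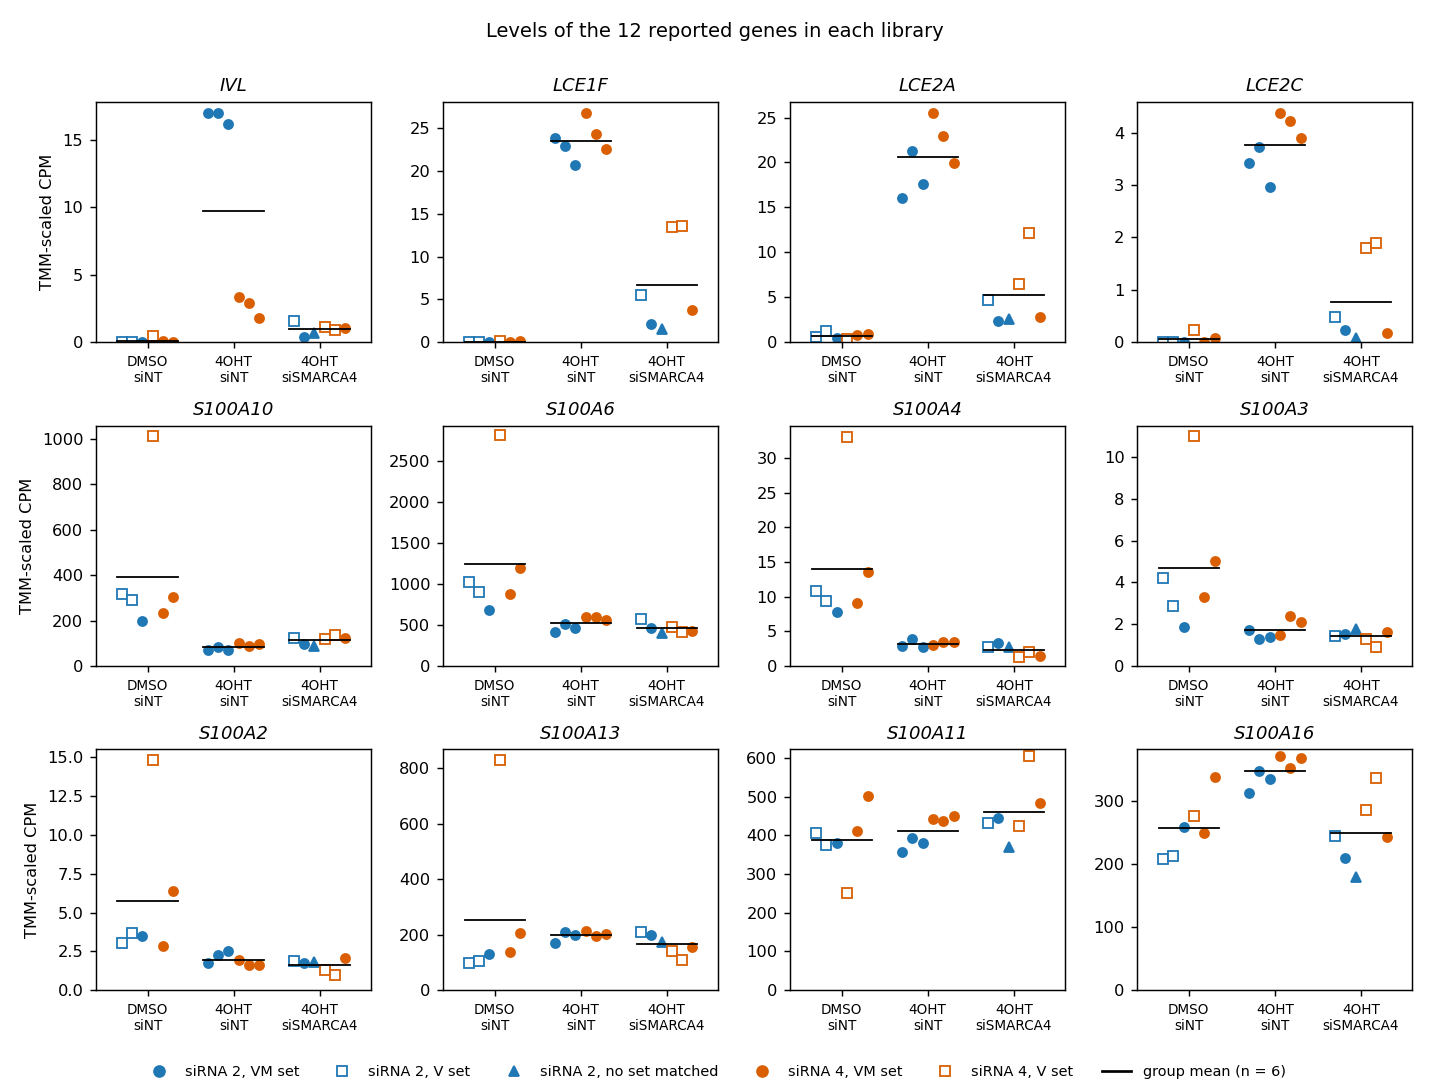
TMM-scaled CPM (vertical axes, linear, from 0) of each of the 12 reported genes in the 18 libraries, by group; colours give the siRNA number, squares V sets, circles VM sets, the triangle the library with no matching set, and bars the mean of 6. LCE1F, LCE2A and LCE2C are highest in 4OHT_siNT, with the knockdown libraries spread below. In 4OHT_siNT IVL is higher with siNT 2 than with siNT 4, and with both it is above the DMSO libraries. S100A10, S100A6, S100A4, S100A3, S100A2 and S100A13 have 1 high DMSO library, 4-2V.

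LCE2A was higher in senescent than in growing cells, and SMARCA4 siRNA lowered it. Its lowest, median and highest values were 0.359, 0.658 and 1.24 CPM in DMSO_siNT, 16.1, 20.6 and 25.5 CPM in 4OHT_siNT, and 2.31, 3.79 and 12.2 CPM in 4OHT_siSMARCA4. LCE2A was low in growing cells, high in senescent cells and in between after knockdown, with no overlap between the groups. In senescence 17% of the 13136 genes tested were likewise higher without overlap and 16.8% lower. With knockdown 5.12% were higher and 6.27% lower without overlap. The log2 fold change was 4.78 ± 0.40 in senescence (27.6-fold, adjusted p = 6.48e-09) and −1.98 ± 0.32 with SMARCA4 siRNA (0.254-fold, adjusted p = 0.000613). Without DMSO_siNT 4-2V the senescence value was 4.69 ± 0.40.

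LCE1F, one of the 2 genes chosen for having responded, is given as a description. It was at 20.8, 23.4 and 26.8 CPM in the lowest, median and highest 4OHT_siNT library, and at 0, 0 and 0.146 CPM in DMSO_siNT. No DMSO library had over 2 counts of LCE1F, so 4OHT_siNT was at least 65.6-fold higher against a floor of 3 counts per library. With SMARCA4 knocked down LCE1F was at 1.53, 4.62 and 13.6 CPM, and its group mean was 28.2% of that in 4OHT_siNT. The knockdown libraries lay between the other groups, with no overlap.

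LCE2C was the lowest of these 3 genes in 4OHT cells. It had at most 2 counts in any DMSO library, 2.96, 3.82 and 4.38 CPM in the lowest, median and highest 4OHT_siNT library, and 0.0808, 0.356 and 1.90 CPM in 4OHT_siSMARCA4. Senescent cells were at least 10.5-fold above the floor of 3 counts per library in growing cells. The fitted log2 differences were 6.25 ± 0.76 in senescence, 7.30 ± 0.83 without DMSO_siNT 4-2V, and −2.22 ± 0.49 with knockdown, and the first 2 depend on the prior count. LCE2C had 10 counts in 0 DMSO libraries, 6 of 6 4OHT_siNT libraries and 2 knockdown libraries, so that its limit of 5 libraries was met by 4OHT_siNT alone and a high value there was built into its being reported, in both comparisons. LCE1F had 10 counts in no DMSO library and in all 4OHT libraries.

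IVL differed between the control siRNAs in senescent cells. In 4OHT_siNT it was at 16.2, 16.95 and 16.97 CPM with siNT 2 and at 1.80, 2.93 and 3.34 CPM with siNT 4. The means were 16.7 ± 0.447 and 2.69 ± 0.800 CPM (SD, n = 3), so that the siNTs did not overlap. The same libraries also differed in ESR1, at 2021 to 2213 CPM with siNT 2 and 2841 to 3111 CPM with siNT 4. HRAS was at 4094 to 4183 CPM and 5329 to 5712 CPM in them, and the part of the fusion level in IVL was not tested. DMSO libraries had at most 4 counts of IVL, the highest in 4-2V at 0.478 CPM, and 4 of the 6 had none. Knockdown libraries held 0.398, 0.972 and 1.58 CPM (lowest, median, highest), which was below every 4OHT_siNT library, including those with siNT 4. Against siNT 4 alone the fitted knockdown difference of IVL was −1.50 ± 0.50 on the log2 scale, and against siNT 2 alone it was −4.12 ± 0.41. LCE1F, by contrast, was at 22.5 ± 1.56 CPM with siNT 2 and 24.6 ± 2.12 CPM with siNT 4 (SD, n = 3).

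The genes just outside the reporting limit were LCE2B and LCE3D, each with 10 counts or more in 4 libraries, against 8 libraries for LCE2C and 10 for IVL just inside it. LCE2B had 2 counts over all DMSO libraries, 88 over 4OHT_siNT and 8 over 4OHT_siSMARCA4. LCE3D had 0, 55 and 18. Both were read mainly in the same libraries as LCE1F and LCE2A. LCE2B and LCE2C transcripts were 90.9% identical when aligned, and 14.3% of the 72-base windows of LCE2C, the length of the reads, also occurred in LCE2B or LCE2D. For LCE2B this share was 13.8% and for LCE2D 0.903%, and counts of the 3 genes are uncertain to those extents. LCE2A, LCE1F and IVL had no window in common with another gene.

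The rest of the complex had few reads. Of the 49 genes, 16 had no count in any library and 21 had some counts but too few, with LCE3D, LCE2B and S100A5 the only ones of these to reach 10 counts in any library. The 11 SPRR genes gave 4, 6 and 2 counts in all over the 6 libraries of DMSO_siNT, 4OHT_siNT and 4OHT_siSMARCA4. FLG, HRNR and TCHH together gave 13, 22 and 24 counts, 6 of the 13 being HRNR reads in DMSO_siNT 4-2V, and the alarmins S100A7, S100A9 and S100A12 had none while S100A8 had 1. Of 12 further genes of the complex, loricrin and cornulin among them, 11 never passed 3 counts. The 15 LCE genes under the limit together had 2 counts in DMSO_siNT, 179 in 4OHT_siNT and 34 in 4OHT_siSMARCA4, LCE2D giving 19 and LCE1E 10 of the 179.

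Genes that work with the envelope proteins in skin were mostly absent too. Of 21 such genes (transglutaminases, plakins, keratins, proteases and lipid enzymes) 13 had at most 3 counts in every library and 3 were tested. Of these 3, 2 were higher and 0 lower in senescence, with or without 4-2V (median log2 fold change 1.52 and 1.48). Over all genes 23.9% were called higher and 28.9% lower in senescence, or 27.9% and 30.3% without 4-2V. With knockdown the median of the 3 was 0.09. PI3 (elafin, a protease inhibitor that transglutaminases can anchor) was at 0.0119 ± 0.0292 CPM in DMSO_siNT, 3.35 ± 0.68 CPM in 4OHT_siNT and 5.08 ± 2.97 CPM in 4OHT_siSMARCA4 (SD, n = 6). It rose in senescence by 7.21 ± 0.70 on the log2 scale (adjusted p = 5.79e-08), a value that depends on the prior count because 1 read was the most in any DMSO library. ALOXE3, a lipoxygenase of the epidermal barrier, rose by 1.52 ± 0.39 (adjusted p = 0.00269), and KRT10 was at 46.8, 44.8 and 47.6 CPM in the 3 groups. None of the 3 was called with knockdown, where 4.99% of all genes were called higher and 5.65% lower. For PI3 the difference was 0.60 ± 0.34 (adjusted p = 0.287). Genes read but not tested went both ways. The plakin PPL was at 2.63 ± 2.12, 0.216 ± 0.156 and 0.0791 ± 0.108 CPM in the 3 groups (SD, n = 6). CNFN was at 0.492, 0.153 and 0.305 CPM, and the transglutaminase TGM1 at 0.741, 0.510 and 0.556 CPM. ABCA12 was at 0.266, 0.52 and 0.0677 CPM and CSTA at 0.0647, 0.240 and 0.0972 CPM. TGM3 and TGM5 had at most 2 counts.

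Keratinocyte markers did not accompany the LCE reads. Of 10 such markers 8 had at most 3 counts in every library, KRT5 having none and KRT14 at most 1, and the other two were KRT10 and EPCAM, the latter with at most 19 counts and highest in DMSO_siNT. The sum of the 10 ranged from 38.6 to 58.0 CPM in DMSO_siNT, 36.2 to 55.6 CPM in 4OHT_siNT and 39.4 to 53.1 CPM in 4OHT_siSMARCA4, nearly all of it KRT10. None of 8 myeloid markers passed the filter, their sum being at most 1.73 CPM in any library.

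Of 15 transcription factors known to act in epidermal differentiation 7 were tested, with 4 higher and 3 lower in senescence, with or without 4-2V (median log2 fold change 1.15 and 1.23), where 23.9% of all genes were higher and 28.9% lower. EHF, an ETS factor of epithelia, rose from 0.878 ± 0.449 to 75.6 ± 7.89 CPM (log2 fold change 6.37 ± 0.35, adjusted p = 2.27e-11), and PRDM1 from 7.71 ± 1.97 to 84.1 ± 6.29 CPM (3.44 ± 0.15, adjusted p = 8.75e-13; SD, n = 6). CEBPB rose by 1.15 ± 0.12 (adjusted p = 1.95e-07). KLF4 fell by 2.601 ± 0.267, GATA3 by 1.21 ± 0.37 and MAF by 0.71 ± 0.20, with adjusted p up to 0.01004. EHF, PRDM1, CEBPB, KLF4, GATA3 and MAF were not called with SMARCA4 siRNA. TP63, the master factor of stratified epithelia, had at most 3 counts.

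Of the 8 S100A genes reported, 5 fell in senescence and 1 rose. Among the 9 reported genes given a test, LCE2C left out, 2 were called higher in 4OHT_siNT than in DMSO_siNT, LCE2A and S100A16. The 5 called lower were S100A10, S100A4, S100A2, S100A3 and S100A6. Over all 13136 genes tested 23.9% were called higher and 28.9% lower, 52.8% in either direction. With LCE2C left out 2 of 9 were higher and 5 lower, with a median log2 fold change of −1.24, that of all genes being −0.05. Without DMSO_siNT 4-2V, 3 of the 9 were called higher and 5 lower (median −0.82), where 27.9% and 30.3% of 13276 genes were.

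S100A10, the annexin A2 partner, was at 198, 296 and 1012 CPM in the lowest, median and highest DMSO library and at 69.4, 86.0 and 99.8 CPM in 4OHT_siNT. Every senescent library was below every growing one, as was so for 16.8% of all genes tested. The log2 fold change was −2.21 ± 0.31 (adjusted p = 6.42e-06), and −1.65 ± 0.14 without 4-2V (adjusted p = 1.90e-09). In 4OHT_siSMARCA4 it was at 88.1, 122 and 135 CPM, which overlapped the senescent controls. This difference of 0.43 ± 0.30 was not called (adjusted p = 0.394), but was called without 4-2V (0.42 ± 0.13, adjusted p = 0.0210) and in a fit of the 2 groups alone (0.43 ± 0.11, adjusted p = 0.0113).

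S100A4 was at 7.85, 10.1 and 33.1 CPM in DMSO_siNT and at 2.73, 3.24 and 3.94 CPM in 4OHT_siNT (lowest, median, highest). The groups did not overlap, and the log2 fold change was −2.09 ± 0.32 (adjusted p = 1.75e-05), or −1.64 ± 0.20 without 4-2V. Such a fall without overlap was seen for 16.8% of all genes tested. S100A6, calcyclin, was the most abundant of the set at 679, 965 and 2810 CPM in DMSO_siNT and fell to 416, 543 and 601 CPM in 4OHT_siNT. All 6 growing libraries were again higher than all 6 senescent ones, with a difference of −1.24 ± 0.26 (adjusted p = 0.000443) or −0.82 ± 0.13 without 4-2V. S100A2 and S100A3 had few reads, with 1.96 ± 0.364 and 1.74 ± 0.428 CPM in 4OHT_siNT (SD, n = 6), and fell by 1.51 ± 0.35 and 1.40 ± 0.33 on the log2 scale (adjusted p = 0.00134 and 0.00144). Without 4-2V they fell by 0.99 ± 0.23 and 0.98 ± 0.24, both still called, and S100A3 values of the groups overlapped. With siNT 2 alone the fall of S100A2 was 0.64 ± 0.27 and not called (adjusted p = 0.0619).

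S100A16 rose a little and fell back. It was at 207, 253 and 337 CPM in DMSO_siNT, 312, 349 and 372 CPM in 4OHT_siNT, and 179, 244 and 337 CPM in 4OHT_siSMARCA4 (lowest, median, highest). Only 1 DMSO library, 4-3VM, reached into the senescent range. The log2 fold change was 0.44 ± 0.14 in senescence (adjusted p = 0.0139) and 0.46 ± 0.14 without 4-2V, lost with siNT 4 alone (0.36 ± 0.21, adjusted p = 0.187), and −0.48 ± 0.14 with knockdown (adjusted p = 0.0356). The knockdown call was lost with siNT 2 alone (adjusted p = 0.252), siNT 4 alone (0.09997) and siSMARCA4_4 alone (0.487). Leaving out 4OHT_siNT 2-2VM, 4-1VM, 4-2VM or 4-3VM, or 4OHT_siSMARCA4 2-3V, 2-3VM, 4-2VM or the library with no matching set, also lost it, with adjusted p from 0.0519 to 0.0806.

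S100A11 and S100A13 were not called in either comparison. S100A11 was at 388 ± 81.0, 410 ± 38.6 and 460 ± 79.7 CPM in the 3 groups (SD, n = 6), and its lowest DMSO library, at 252 CPM, was 4-2V. S100A13 was at 96.4 to 206 CPM in 5 DMSO libraries and at 830 CPM in 4-2V, against 171 to 214 CPM in 4OHT_siNT. Its log2 fold change of −0.34 ± 0.41 (adjusted p = 0.4999) became 0.56 ± 0.17 without 4-2V (adjusted p = 0.00862), so that the direction and the call of S100A13 both rested on that library. GENCODE v44 places 24.2% of the exonic bases of S100A13 in a second gene on the same strand (ENSG00000271853) and 10.6% in S100A1 on the opposite strand. Whether the counting used strand is not given in the sources used here, so its count may hold reads of both neighbours.

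**Figure D2:**
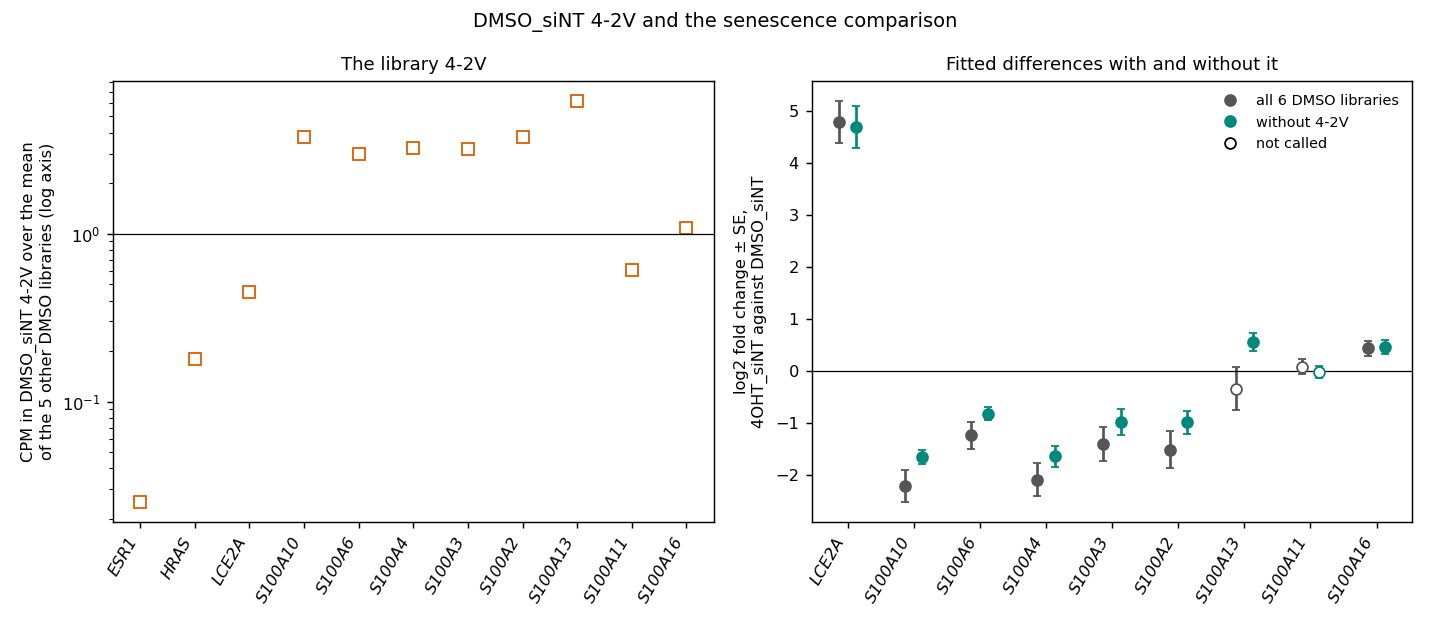
Left, CPM in DMSO_siNT 4-2V divided by the mean of the 5 other DMSO libraries (log axis), for ESR1, HRAS and the reported genes that had reads in DMSO cells. Right, log2 fold change ± SE of 4OHT_siNT against DMSO_siNT with all 6 DMSO libraries (grey) and without 4-2V (green), open symbols not called: the falls of S100A10, S100A4, S100A6, S100A2 and S100A3 are smaller without it and S100A13 crosses 0.

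Among 9 genes for proteins that bind S100 proteins or act as their receptors 8 were tested, 4 lower and 1 higher in senescence, with or without 4-2V (median log2 fold change −0.26 and −0.30). This was a share near that of all genes, 52.8% in either direction. ANXA2, the partner of S100A10, fell by 0.45 ± 0.13 (adjusted p = 0.00839), and ANXA1 by 1.49 ± 0.16 (adjusted p = 2.43e-07). CACYBP, the calcyclin-binding protein, fell by 1.03 ± 0.15 (adjusted p = 1.15e-05), and ANXA11 by 0.58 ± 0.10. Basigin (BSG) rose by 0.66 ± 0.11 (adjusted p = 6.44e-05), and AGER, the receptor for advanced glycation end products, was at 1.83 and 1.75 CPM. None of the 8 was called with SMARCA4 siRNA, where 4.99% of all genes were called higher and 5.65% lower. S100 genes on other chromosomes, 4 in number, never passed 3 counts.

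Compared per kilobase of exon, the order of levels in 4OHT_siNT was S100A11 (632 ± 59.5 CPM per kb) and S100A6 (544 ± 76.96), then S100A16 (204 ± 12.9), then S100A13 (89.3 ± 6.73) and S100A10 (83.9 ± 12.3), then LCE2A (33.7 ± 5.67) and LCE1F (32.4 ± 2.77; SD, n = 6). LCE2C (6.03 ± 0.842), IVL (4.51 ± 3.58), S100A4 (3.43 ± 0.484), S100A3 (2.07 ± 0.509) and S100A2 (1.27 ± 0.235) came below. The members of the pairs S100A11 and S100A6, S100A13 and S100A10, and LCE2A and LCE1F were within 2 SD of each other, and IVL overlapped both its neighbours. In DMSO_siNT S100A6 came first at 1284 ± 808 CPM per kb, and LCE1F was at 0.0609 ± 0.095. LCE1F and LCE2A thus stood above S100A4 in senescent cells and below it in growing cells, where S100A4 was at 14.8 ± 10.1 CPM per kb.

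With LCE2C left out, SMARCA4 knockdown lowered 2 of the 9 tested genes, LCE2A and S100A16, and none was called higher. This comparison shares the 4OHT_siNT libraries with the senescence comparison, so a high value in them enters both. Over all genes 5.65% were called lower and 4.99% higher. With LCE2C left out 2 of 9 were lower, with a median log2 fold change of −0.27 against 0.01 for all genes. The 7 genes not called were S100A genes, and their differences ran from −0.53 ± 0.33 for S100A4 (adjusted p = 0.355) to 0.43 ± 0.30 for S100A10. Without DMSO_siNT 4-2V in the fit, 1 of the 9 was called higher, S100A10, and 2 lower. There 11.7% of 13276 genes were called higher and 12.9% lower. Fibroblast markers moved in the same comparison, with 6 of 10 lower and none higher (median log2 fold change −0.86). COL1A1 fell by 1.42 ± 0.28 on the log2 scale (adjusted p = 0.00255) while VIM was at −0.03 ± 0.14, and the summed level of the 10 was 8905 to 12924 CPM in 4OHT_siSMARCA4 libraries against 15368 to 20309 CPM in 4OHT_siNT. In senescence 5 of the 10 were lower and none higher (median −0.61), or 8 lower without 4-2V (median −0.79). Over all genes 28.9% were called lower and 23.9% higher in senescence, or 30.3% and 27.9% without 4-2V. DCN was at −5.17 ± 0.21 in senescence (adjusted p = 5.34e-13), and the sum of the 10 was 12002 to 32043 CPM in DMSO_siNT. The part of these markers in the values of the LCE and S100A genes was not tested. In growing cells SMARCA4 siRNA was not analysed here. In bulk RNA, fewer cells that express a gene and less RNA per cell cannot be told apart, here or in senescence.

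**Figure D3:**
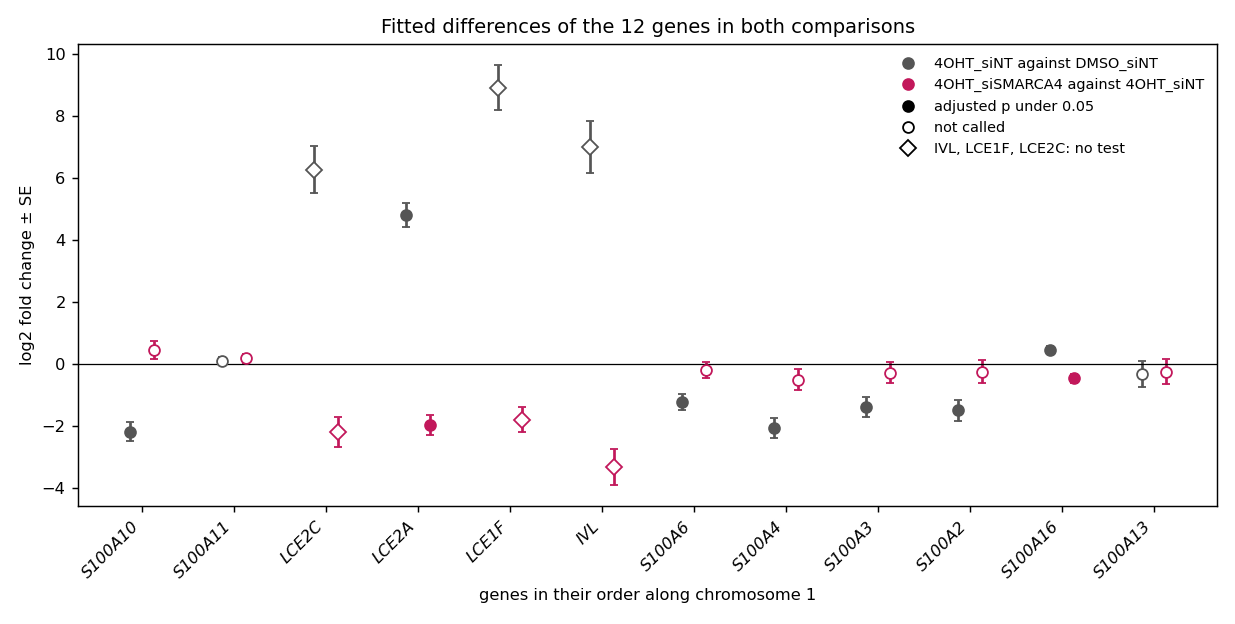
Log2 fold change ± SE (vertical axis) of the 12 reported genes, in their order along chromosome 1, for 4OHT_siNT against DMSO_siNT (grey) and 4OHT_siSMARCA4 against 4OHT_siNT (magenta). Filled circles were called, open circles not, and diamonds are IVL, LCE1F and LCE2C, shown with no test; the senescence values of LCE2C, LCE1F and IVL depend on the prior count. LCE2A and LCE2C are high in the first comparison and low in the second, and the S100A genes on either side lie closer to 0, the lowest being S100A10 at −2.21 in senescence.

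The libraries behind the knockdown values were uneven by set. As a share of the 4OHT_siNT mean, LCE1F was at 23.4%, 57.0% and 57.9% in the V libraries 2-3V, 4-2V and 4-3V, at 8.81% and 15.8% in the VM libraries 2-3VM and 4-2VM, and at 6.53% in the unmatched library, whose column name carries VM. LCE2A was at 23.0%, 31.6% and 59.4% in the same V libraries, at 11.2% and 13.9% in the VM libraries and at 12.6% in the unmatched one. LCE2C ran from 12.5% to 50.3% in V libraries and from 2.14% to 6.34% in the others. For these 3 genes every V library was above every other knockdown library. Residual SMARCA4 was 41.3%, 46.7% and 30.8% in the V libraries against 23.3% to 28.9% in the others, so it was also higher in the V sets, and its part in the LCE values was not tested. IVL did not follow the sets as closely, with 16.2%, 11.6% and 9.36% in V libraries and 4.11% to 10.7% in the others.

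All 4OHT_siNT libraries came from VM sets, so for V libraries the set and the knockdown cannot be told apart. Within VM sets alone, with 2 knockdown libraries, LCE2A fell by 3.01 ± 0.24 on the log2 scale (adjusted p = 2.22e-06) and S100A16 by 0.64 ± 0.13 (adjusted p = 0.00321). These were 2 of 9 genes called lower with LCE2C left out, where 12.2% of 13615 genes were. In that fit LCE1F was at 0.121-fold and IVL at 0.0732-fold of the control level and LCE2C had a difference of −4.14 ± 0.45, with no test. For senescence the VM sets gave 4.801 ± 0.240 for LCE2A and −1.53 ± 0.14 for S100A10, and their direction was the same as with all sets.

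**Figure D4:**
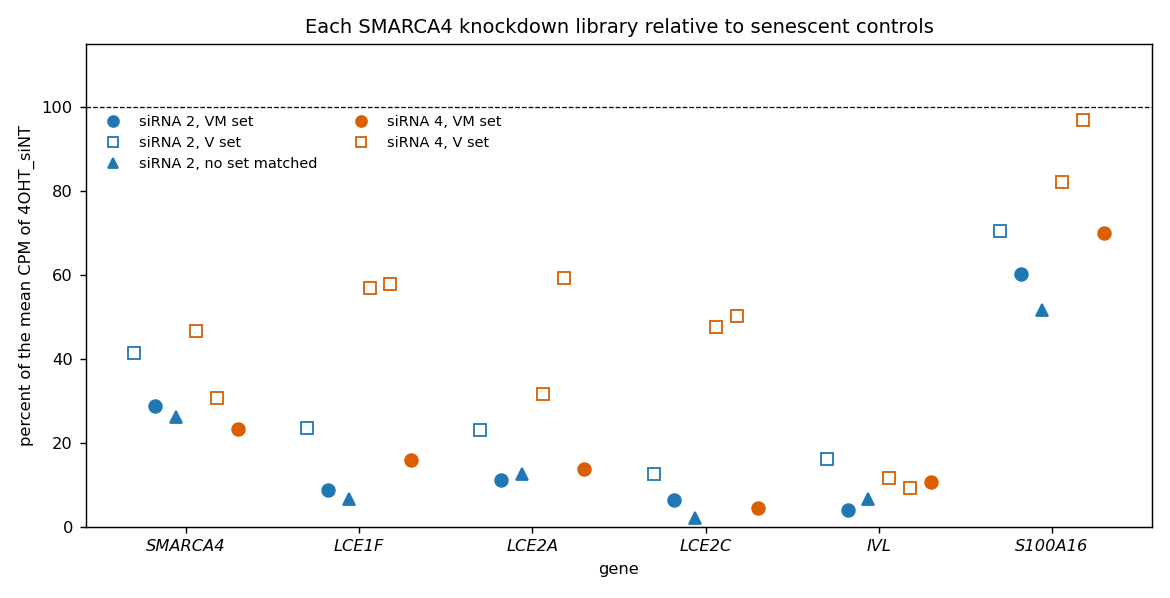
CPM in each 4OHT_siSMARCA4 library as a percent of the mean of the 6 4OHT_siNT libraries (vertical axis, linear; dashed line at 100) for SMARCA4 and 5 of the genes. Open squares are V sets, circles VM sets and the triangle the library with no matching set: for LCE1F, LCE2A and LCE2C the squares lie above the other symbols.

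By siRNA number none of the 10 genes fitted, the 9 and LCE2C, was called in any of 4 comparisons (edgeR's quasi-likelihood test, 13659 genes). Between siNT 2 and siNT 4 in 4OHT cells 0.0732% of all genes were called and 0 of the 10 had an unadjusted p under 0.05, against 10.6% of all genes. LCE2A differed there by −0.32 on the log2 scale (95% limits about −1.03 to 0.40, from 2 SE each way). In DMSO cells 0.0512% of genes were called, and 7 of the 10 had an unadjusted p under 0.05, as did 28.3% of all genes. Those 7 were S100A genes, each lower with siNT 2, where S100A13 had −1.81 ± 0.44 (adjusted p = 0.0625), and 4-2V is one of the siNT 4 libraries. Without DMSO_siNT 4-2VM 6 of the 10 were called lower, where 16.4% of 13882 genes were (15.2% higher), and without 4-3VM 1 was, where 5.01% of 13863 genes were (0.519% higher). Without 4-2V S100A13 had −0.62 ± 0.17 (adjusted p = 0.125) and S100A10 −0.01 ± 0.17.

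Between the SMARCA4 siRNAs 0.00732% of genes were called. Of the 10 genes 4 had an unadjusted p under 0.05, or 3 of 9 with LCE2C left out, against 6.43% of all genes. The log2 difference of siSMARCA4_2 from siSMARCA4_4 was −2.26 ± 0.70 for LCE2C, −1.14 ± 0.40 for LCE2A (adjusted p = 0.631), −0.43 ± 0.16 for S100A16 and 0.89 ± 0.40 for S100A4. Of the 3 V libraries 2 had siSMARCA4_4. Taken separately, siSMARCA4_2 gave −2.69 ± 0.29 for LCE2A, which was called, and −3.79 ± 0.51 for LCE2C, and siSMARCA4_4 gave −1.52 ± 0.34 for LCE2A (adjusted p = 0.0297) and −1.52 ± 0.50 for LCE2C. The difference between the senescence effects seen with each siNT was called for 0% of genes, and 2 of the 10, S100A13 and S100A2, had an unadjusted p under 0.05, a share below the 23.9% of all genes. Without DMSO_siNT 4-2VM 3 of the 10 were called, all higher, where 13.3% of 13882 genes were (9.53% lower). DESeq2 called 4 of the 10 between the siNTs in DMSO cells, S100A13, S100A2, S100A6 and S100A4, all lower with siNT 2, where it called 8.95% of genes lower.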

How the data were processed

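Counts per gene were deposited by the authors as raw values with no normalization, in 36 columns for 18 libraries on 2 lanes each. Per the labels and the study's methods, polyadenylated RNA was made into directional libraries, sequenced from 1 end over 72 bases and mapped by STAR. The submitters' processing notes name STAR 2.7.8a, DESeq2 1.36.0 and hg38. The annotation and the counting program are not given in the sources used here. Lanes were summed. Titles of 17 of the 29 samples fitted a library in treatment, siRNA and set. The other 12 were not analysed here, and 1 siSMARCA4_2 library whose column carried a set that no such title had was kept without a set.

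Libraries were scaled by TMM and compared by edgeR 4.0.16 (R 4.3.3) with its quasi-likelihood F test, filterByExpr with a minimum count of 10, all groups in 1 fit, and Benjamini-Hochberg adjustment over all 13136 genes tested (13659 in the fit by siRNA number). Calls are at an adjusted p under 0.05, and SEs came from the F statistic. The common biological coefficient of variation was 23.3%. Fold bounds used 3 counts per library, for counting error only. Every gene of the set with 10 counts in 5 libraries is named. The members, lists and tests were chosen with earlier results of these data known. Exonic lengths and overlaps came from GENCODE v44, upstream sequences from RefSeq. The fits were tested on simulated data. DESeq2 1.42.0, other scalings and filters, single siRNAs, VM sets, the set as a block and leaving out each library were alternatives, and VM sets with the unmatched library were added after seeing the data. One gene of the lists is not reported here.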

Additional observations from a re-analysis of the deposited data

Results flagged for a closer look

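Of 36 sets of 6 values, each a gene in a group, 4 had 1 library far from the others, where chance gives about 1.8. In all 4 it was DMSO_siNT 4-2V, the library low in ESR1 and HRAS. On a log2 scale its gap to the nearest other library, divided by the range of the 6, was 0.713 for S100A10, 0.649 for S100A13, 0.793 for IVL and 0.652 for LCE2C. The IVL and LCE2C gaps rest on 4 and 2 counts.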

How the results depend on the processing

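Counts of genes called are given here out of 10, with LCE2C included, although a high 4OHT_siNT value was built into its being reported. With LCE2C left out, the main fit called 2 of 9 genes higher and 5 lower in senescence, and 2 lower with knockdown. Over all genes the main fit called 23.9% higher and 28.9% lower in senescence, and 4.99% and 5.65% with knockdown. The counts out of 10 stayed within 1.5 times under RLE scaling, the threshold of 0.01 and a limit of 3 libraries for reporting. In senescence the set as a replicate block, without the unmatched library, gave 4 genes in place of 8 (2 higher, 2 lower). The share of all genes called in that fit is not given here, so this drop cannot be set beside it. S100A6 (−0.90), S100A3 (−1.07), S100A2 (−1.29) and S100A16 (0.39) were not called there, with adjusted p from 0.0513 to 0.106, nor was S100A16 with knockdown (−0.50, adjusted p = 0.263). Of 15 pairs of libraries that share a set, 5 correlated above 0.1 (−0.319 to 0.353), which cannot decide whether the set had an effect. Leaving out 1 library gave 8 to 9 genes, and without DMSO_siNT 4-2V 27.9% of all genes were called higher and 30.3% lower. With knockdown, siNT 2 alone and siSMARCA4_4 alone each gave 1 gene in place of 3. Of all genes 3.19% were called lower and 1.63% higher with siNT 2 alone, and 1.04% and 0.822% with siSMARCA4_4 alone. A limit of 10 counts in every library also gave 1 gene because LCE2A and LCE2C were then not tested, and leave-one-out fits gave 2 to 4. Between the siNTs in DMSO cells, DESeq2 gave 4 genes and no filter 1 in place of 0, and leave-one-out 0 to 6, the 6 without DMSO_siNT 4-2VM. Of all genes DESeq2 called 8.95% lower and 3.98% higher, and 16.4% and 15.2% were called without DMSO_siNT 4-2VM. The difference of senescence effects gave 0 to 3, the 3 also without DMSO_siNT 4-2VM, where 13.3% of all genes were called higher and 9.53% lower. S100A11 and S100A13, neither of them called, turned direction in senescence. S100A11 was −0.0102 with the block, −0.0707 in VM sets, −0.0728 with the unmatched library added, −0.0319 with siNT 2 alone and −0.0120 to 0.180 when 1 library was left out. S100A13 was 0.0782 with the block, 0.33 in VM sets, 0.32 with the unmatched library added (adjusted p = 0.0499), 0.80 with siNT 2 alone (adjusted p = 0.00375) and −0.50 to 0.56 when 1 library was left out. The causes were not tested. Depth limits LCE2C, S100A2 and S100A3, read at a few CPM, and the genes at 0.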

Other observations

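Of 15 other genes lying between or beside the cornified envelope genes on 1q21, 12 had at most 3 counts in every library and none passed the filter for testing. FLG-AS1, an antisense transcript of the filaggrin locus, was read most, with at most 14 counts in a library and 0.451, 0.538 and 0.422 CPM on average in DMSO_siNT, 4OHT_siNT and 4OHT_siSMARCA4. CRCT1 (cysteine-rich C-terminal protein 1) had at most 6 counts and KPRP (keratinocyte proline-rich protein) at most 4. Their averages were 0.1041 and 0.1001 CPM in 4OHT_siNT, and both were at 0 counts in DMSO_siNT.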
